A study of Homo sapiens with 6 samples.

Results

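The regions described here are 765 peaks of G-quadruplex (G4) DNA in untreated human U2OS osteosarcoma cells. They were chosen from the 3376 peaks of the untreated (Ctrl) list on chromosomes 1 to 22 and X. Each shared no base with any of the 2172 peaks called after 1,6-hexanediol (HD), and each overlapped the window of 1 kb either side of the start or end of exactly 1 protein-coding gene. The 765 peaks lay at 756 genes, of which 9 had 2 such peaks. Presence in the Ctrl list and absence from the HD list were thus fixed by the choice, and so were the heights that put a peak into a list. Those values are given as a description.

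The study used BG4, an antibody fragment that binds folded G4s, to immunoprecipitate fixed chromatin from U2OS, an established cell line, either untreated or treated with HD. There were 2 ChIP libraries and 1 input library per condition, and the inputs carried no antibody. All cells were fixed with formaldehyde (1%, 10 min), and the treated group differed from the untreated group, as labelled, by HD alone, whose dose and duration the sources used here do not give. The authors deposited 1 peak list per condition, tied by the labels to both of its ChIP libraries, and every peak name of the HD list carries the number of replicate 1. The HD list, and so absence from it, may therefore rest on 1 library. Values of single libraries were not analysed, so how far cultures of 1 condition differ is unknown, and no contrast between conditions was tested. In bulk chromatin, fewer cells holding a structure and a weaker signal per cell cannot be told apart.

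A G4 is a four-stranded fold in which guanines from separate runs pair into stacked planar tetrads. Sequences that can fold this way are concentrated in the GC-rich DNA just before the starts of many housekeeping and growth-related genes, where the DNA is also open and bound by transcription factors. HD is an alcohol that disturbs weak hydrophobic contacts and is used to dissolve many protein and RNA condensates in cells.

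The promoter sequences below are picked cases and do not show the whole range of DNA under these peaks. They come from the 4 strongest peaks that had a usable sequence and from promoters among the densest in G4 motifs. Most promoter windows of these peaks, 339 of 553, held no such motif, as given below. Each is the 250 bases before the annotated start on the gene's own strand, from RefSeq (GRCh38.p14), read 5′ to 3′. Capitals mark every match to the G4 motif, defined as 4 runs of GGG separated by 1 to 7 bases of any kind (N), on either strand, so that capitals rich in C are a motif on the opposite strand. OLA1 (Gene ID 29789, an Obg-like ATPase) is shown from chr2:174248533-174248782, minus strand, under the peak chr2:174248489-174248825, which straddles the start. DMWD (1762, a WD-repeat protein) is shown from chr19:45792846-45793095, minus strand, under the peak chr19:45792767-45793078. CEP55 (55165, a midbody protein of the last step of cell division) is shown from chr10:93496362-93496611, plus strand, under the peak chr10:93496307-93496682. TULP3 (7289, which brings receptors into the primary cilium) is shown from chr12:2890641-2890890, plus strand, under the peak chr12:2890651-2890949. SPTSSA (171546, a small subunit of serine palmitoyltransferase) is shown from chr14:34462241-34462490, minus strand, with the peak chr14:34462284-34462538 wholly before the start. RASA3 (22821, which switches RAS proteins off) is shown from chr13:114132624-114132873, minus strand, under the peak chr13:114132566-114132766.
OLA1: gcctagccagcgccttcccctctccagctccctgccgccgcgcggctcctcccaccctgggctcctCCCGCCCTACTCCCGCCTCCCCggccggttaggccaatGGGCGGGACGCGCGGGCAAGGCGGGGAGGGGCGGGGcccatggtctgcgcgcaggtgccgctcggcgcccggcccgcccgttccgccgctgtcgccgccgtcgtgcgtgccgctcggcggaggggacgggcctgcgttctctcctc
DMWD: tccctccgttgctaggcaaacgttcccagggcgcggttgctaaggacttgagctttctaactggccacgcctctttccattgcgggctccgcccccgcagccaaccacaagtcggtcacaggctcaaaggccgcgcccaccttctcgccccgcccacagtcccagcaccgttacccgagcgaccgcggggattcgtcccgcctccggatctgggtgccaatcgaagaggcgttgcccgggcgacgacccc
CEP55: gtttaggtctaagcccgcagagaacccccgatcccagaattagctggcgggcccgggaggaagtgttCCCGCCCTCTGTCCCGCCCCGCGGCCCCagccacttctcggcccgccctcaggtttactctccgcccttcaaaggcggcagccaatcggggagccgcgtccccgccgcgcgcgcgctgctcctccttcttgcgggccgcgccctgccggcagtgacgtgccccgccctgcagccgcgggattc
TULP3: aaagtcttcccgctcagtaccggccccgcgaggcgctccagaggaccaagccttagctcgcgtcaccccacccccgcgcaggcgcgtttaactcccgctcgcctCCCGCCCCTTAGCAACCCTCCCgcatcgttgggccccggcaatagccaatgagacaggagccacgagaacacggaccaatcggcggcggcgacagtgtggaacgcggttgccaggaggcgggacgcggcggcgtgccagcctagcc
SPTSSA: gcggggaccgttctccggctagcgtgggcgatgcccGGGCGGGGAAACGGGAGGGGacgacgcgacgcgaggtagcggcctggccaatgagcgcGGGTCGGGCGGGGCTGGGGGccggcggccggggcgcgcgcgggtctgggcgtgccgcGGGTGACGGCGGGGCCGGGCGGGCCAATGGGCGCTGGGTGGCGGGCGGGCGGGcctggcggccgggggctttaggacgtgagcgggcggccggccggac
RASA3: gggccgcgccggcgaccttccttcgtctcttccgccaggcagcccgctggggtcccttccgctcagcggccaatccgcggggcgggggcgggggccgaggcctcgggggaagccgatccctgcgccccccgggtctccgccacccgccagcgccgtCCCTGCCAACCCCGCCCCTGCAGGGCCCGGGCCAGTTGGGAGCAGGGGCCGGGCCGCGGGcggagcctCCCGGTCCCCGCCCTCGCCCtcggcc
The OLA1 bases held 1 motif on each strand, 58 bases in all, with the peak's summit 160 bp before the start. CEP55 and TULP3 held 1 motif each, on the strand opposite to the gene, of 28 and 22 bases. DMWD, the peak with the second highest enrichment, held no match in these letters. SPTSSA held 3 matches on the gene's strand over 93 bases, and RASA3 held 1 on its own and 2 on the opposite strand over 80 bases. The first 4 were picked for height and the last 2 for motifs, so no relation between the pair of measures can be read from them. OLA1, DMWD, CEP55 and TULP3 had 41, 38, 41 and 44 ChIP fragments at the summit, and SPTSSA and RASA3 each had 22 (exact 95% Poisson interval 13.8 to 33.3).

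Of all 3376 Ctrl peaks, 2076 (61.5%) shared no base with an HD peak. At the ends of exactly 1 coding gene this held for 765 of 1421 peaks (53.8%, exact 95% binomial interval 51.2 to 56.5), and away from every coding gene end for 1104 of 1565 (70.5%). Nothing is read from these shares, since the choice of peaks used them. The Ctrl list was the longer of the 2, and depth differed between the conditions. The genome-wide expectation per base, recovered from the caller's values, was 3.74 ChIP fragments in Ctrl and 5.51 in HD, which is 1.47 times as many. The part of depth in the shares was not tested.

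Most of the peaks were low and narrow. A median peak had 25 ChIP fragments over its summit (range 15 to 437, quartiles 22 and 30) where the caller expected 4.53 from its local background, and was 245 bp wide (range 190 to 837). The ratio of fragments to the expected number had a median of 5.14 (range 1.57 to 11.0). At 25 fragments the exact 95% Poisson interval is 16.2 to 36.9, so that single peaks near the median cannot be ranked. Only 25 peaks had 40 fragments or more, 192 had 30 or more, and 82 had under 20. The 656 Ctrl peaks at 1 coding gene that did share bases with an HD peak had a median of 29 fragments, a ratio of 5.56 and a width of 303 bp. The 372 peaks at 1 coding gene found in the HD list alone had a median of 32 fragments at the greater HD depth, a ratio of 4.71 and a width of 247 bp.

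**Figure D1:**
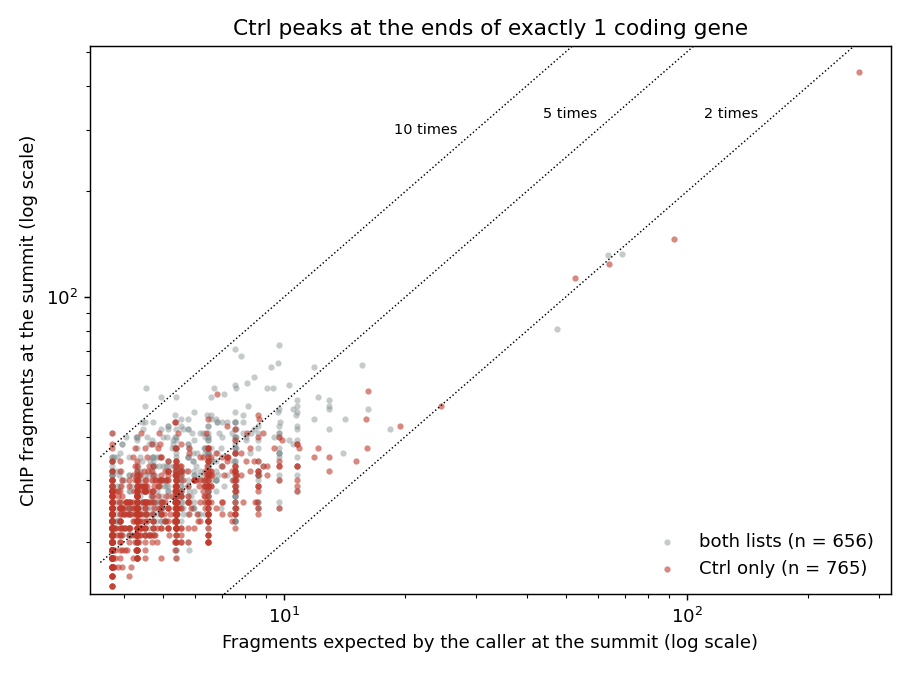
ChIP fragments at the summit against the number the caller expected there, both on log axes, for the 765 Ctrl-only peaks (red) and the 656 peaks found in both lists (grey) at the ends of exactly 1 coding gene. Each point is a peak and dotted lines mark ratios of 2, 5 and 10. Most red points lie at 3.74 to 6 expected fragments and between 15 and 40 observed ones, and a thin tail of peaks with high expectation runs along the line of 2.

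The highest −log10 q among the 765 peaks belonged to HGH1, at chr8:144137539-144137832, with 53 fragments (39.7 to 69.3) and a ratio of 7.76. OLA1 followed with 41 fragments (29.4 to 55.6) and the highest ratio of all, 11.0 (7.87 to 14.9). By ratio, the next peaks after OLA1 were those of DMWD (ratio 10.2), FAM98A (9.90), CEP55 (9.27), SLC30A1 (9.10) and DNAJC19 (9.10). SLC30A1 exports zinc from cells, and DNAJC19 is a co-chaperone of the inner mitochondrial membrane. The Poisson intervals of these peaks overlap, so this order is not firm.

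Other strong peaks lay at genes of unrelated duties. BLTP2, a bridge-like lipid transfer protein, had 44 fragments and a ratio of 8.19. IP6K2, an inositol hexakisphosphate kinase, had 45 and 6.95. CIPC, an inhibitor of the circadian CLOCK protein, had 41 and 8.37, and STK17A, a death-associated kinase, had 41 and 7.52. IREB2, the iron regulatory protein that binds iron-responsive elements in mRNA, had 37 and 8.69. STN1, of the CST complex that helps to fill in telomeric DNA, had 38 and 8.07. GSPT1, the translation termination factor eRF3, had 37 and 8.21 in a peak of 712 bp. Among the genes named here with strong peaks, the nearest HD peak was 9.91 kb away, at HGH1.

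The 5 widest peaks differed in height. ZBTB20, a zinc finger repressor, had the widest at 837 bp, with 23 fragments and a ratio of 5.33, followed by GSPT1 at 712 bp. RPS19, of the small ribosomal subunit, had 659 bp and 21 fragments, UPP1, a uridine phosphorylase, had 634 bp and 24, and TOM1, an endosomal sorting protein, had 617 bp and 54. TOM1 stood on a high expectation of 16.2 fragments, so its ratio was 3.34.

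Strand, which the choice of peaks did not use, put nearly all of them at gene starts. The strand was known for 641 of the 765 peaks, from genes with an entry in the promoter table. Genes of chromosome 8, with 34 of the 765 peaks and HGH1 among them, had no strand or promoter sequence here. They are left out of the start shares, of summit positions relative to the start and of the motif shares. Of these, 626 lay at the start of the gene (97.7%, exact 95% binomial interval 96.2 to 98.7) and 15 at the far end. The shares were 98.1% (96.6 to 99.1) of 537 peaks found in both lists and 95.9% (93.1 to 97.8) of 319 peaks of the HD list alone, so the intervals overlap. For 589 of 765 peaks (77.0%, 73.8 to 79.9) no more than 250 bp separated summit and gene end.

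Summits sat just before the start. Relative to the nearest annotated start, the median summit was at −96 bp (quartiles −165 and −35), and 531 of 626 summits (84.8%, 81.8 to 87.5) lay before it. Peaks found in both lists had their median summit at −133 bp (quartiles −200 and −73), with 483 of 527 before the start (91.7%, 89.0 to 93.9), an interval that does not meet that of the Ctrl-only peaks. In the HD list alone the median was −106 bp and the share 84.6% (80.1 to 88.5) of 306. The intervals cover counting error only and peaks of a list come from the same libraries, so no test of these differences was made. The peaks in both lists were also wider and higher, as given above, and whether that bears on the position was not tested.

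**Figure D2:**
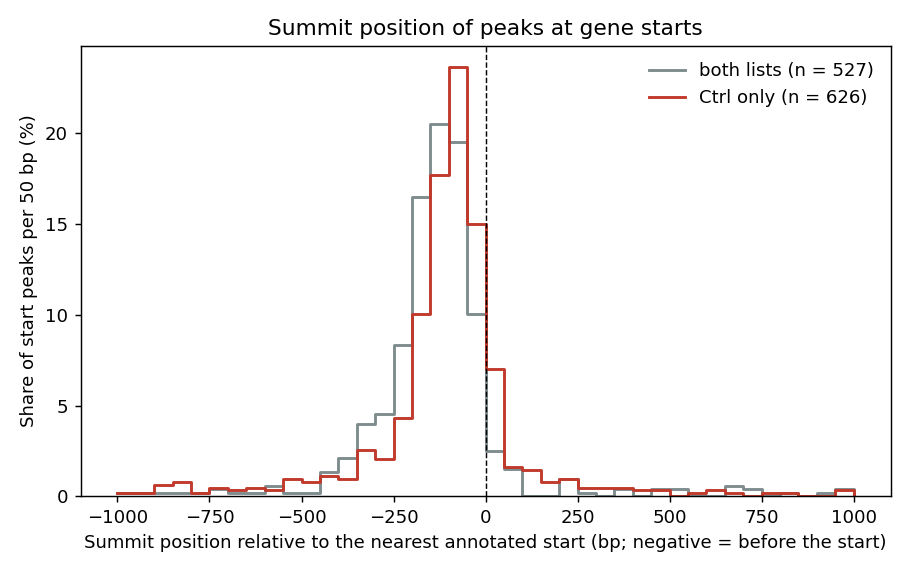
Position of the summit relative to the nearest annotated gene start (x axis, bp, negative before the start) as the share of start peaks per 50 bp (y axis), for 626 Ctrl-only peaks (red) and 527 peaks found in both lists (grey). Both outlines rise before the start, with medians of −96 and −133 bp, and 13 summits of each set lie over 1 kb away, outside the axis.

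The ratios of the 15 far-end peaks ran from 1.57 to 7.55, with a median of 5.53. The 5 with the highest −log10 q were at ADAMTSL4, of the fibrillin-associated matrix proteins (30 fragments, ratio 7.55), COMTD1, a predicted methyltransferase (34 and 6.30), the uncharacterised gene LOC124902602 (29 and 6.50), CCDC106 (25 and 6.40) and SERTAD1, a regulator of cyclin-dependent kinase activity (23 and 6.15). SERTAD1 had a further Ctrl-only peak at its start with 24 fragments. FAM120A, an RNA-binding scaffold protein, likewise had 22 fragments at its start and 26 at its far end. At 3 of the 765 peaks the windows of both ends of a short gene were touched.

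In the other 7 genes with a pair of Ctrl-only peaks, both lay at the start. SRCAP, the ATPase that places the histone variant H2A.Z, had 24 fragments at chr16:30698024-30698218 and 25 at chr16:30698958-30699235. ZNF140 had 21 and 28, ZNF131 had 29 and 26, and ZBTB37 had 21 and 22, all genes of zinc finger proteins. CREBRF had 22 and 23, CYP20A1 had 28 and 19, and LOC124904075 had 24 and 22. The Poisson intervals of the 2 peaks overlapped in each pair.

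Promoter sequence was also free of the choice. A 300-base promoter window (250 bases before the start and 50 after) was matched to 553 of the 626 start peaks, and 214 of these (38.7%, exact 95% binomial interval 34.6 to 42.9) held a G4 motif. The motif was present in 43.8% (39.3 to 48.4) of 484 windows of peaks found in both lists, in 38.6% (32.9 to 44.6) of 277 windows of peaks of the HD list alone, and in 29.96% (29.2 to 30.7) of windows at the first start of 15812 coding genes. The Ctrl-only interval lies above that of all coding genes and overlaps the others. With loops of up to 12 bases the shares became 57.3%, 65.3%, 56.3% and 45.1%. Thus 339 of the 553 windows held no motif in the stricter spelling, which says only that these letters are not in this window.

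The 2 strands held the motif at shares whose intervals overlap. The motif was on the gene's strand alone in 101 windows (18.3%, 15.1 to 21.7), on the opposite strand alone in 91 (16.5%, 13.5 to 19.8) and on both in 22 (3.98%). Among the Ctrl-only peaks, whose heights were bounded by the choice, height hardly differed with the motif. The median ratio was 5.33 (quartiles 4.54 and 6.18) in windows with it and 5.19 (4.45 and 6.08) in windows without it, and the median fragment numbers were 25.5 and 25. The ratios were 5.79 (4.86 and 6.96) and 5.47 (4.52 and 6.29) for peaks in both lists, and 4.72 and 4.72 for the HD list alone. Where motif and summit were both inside the window, the motif was within 50 bp of the summit in 90 of 183 (49.2%, 41.7 to 56.7). For peaks in both lists this was 67 of 174 (38.5%, 31.2 to 46.2), and for the HD list alone 32 of 96 (33.3%, 24.0 to 43.7). The intervals overlap, which does not show the shares to be equal. The share that motifs placed anywhere in the window would give was not computed.

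The windows with the most motif matches were at NMT2, SPTSSA, PLEKHO2, RASA3 and ALK. NMT2 encodes an enzyme that attaches myristate to proteins and had 17 fragments and a ratio of 4.39. PLEKHO2, a pleckstrin homology domain protein, had 26 and 4.47, and its 3 matches were all on the opposite strand. ALK, a receptor tyrosine kinase, had 28 fragments and a ratio of 6.19. In NMT2 and PLEKHO2 the summit lay 345 and 326 bp before the start, beyond the window that held the motifs. These 5 peaks had 17 to 28 fragments, beside the median of 25 over all 765.

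Common promoter elements were searched in the same windows on both strands. GGGCGG, the core bound by SP and KLF factors, which shares its G runs with the G4 motif, was in 87.0% (83.9 to 89.7) of the Ctrl-only windows against 90.7% in both lists, 82.3% in the HD list alone and 58.3% at all coding genes. CCAAT, bound by NF-Y, was in 48.6% (44.4 to 52.9), against 56.8% (52.3 to 61.3), 50.5% and 36.4% in the same order. CCGGAAG, an ETS-type site, was in 20.1% (16.8 to 23.7), 15.5% (12.4 to 19.0), 22.02% (17.3 to 27.4) and 14.1%. CACGTG, the E-box, was in 13.0% (10.3 to 16.1), 9.09% (6.68 to 12.01), 11.9% (8.34 to 16.3) and 8.82%. TATAAA was in 3.80% (2.37 to 5.75), 2.07% (0.995 to 3.77), 2.53% (1.02 to 5.14) and 9.75%.

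Against all coding genes, the Ctrl-only windows thus held the SP/KLF core, the CCAAT box, the ETS-type site and the E-box more often and the TATA box less often, each with intervals that do not meet. Their intervals overlapped those of the HD list alone for every one of these motifs. Median GC content was 68.3% in the Ctrl-only windows, 69.7% in both lists, 67.3% in the HD list alone and 62.7% at all coding genes, and how far GC content accounts for the motif shares was not tested. Transcript levels were not analysed here, so silent promoters stand among all coding genes. Taking every annotated start of the coding genes in place of the first gave 30.3% for the G4 motif and 56.3% for GGGCGG.

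**Figure D3:**
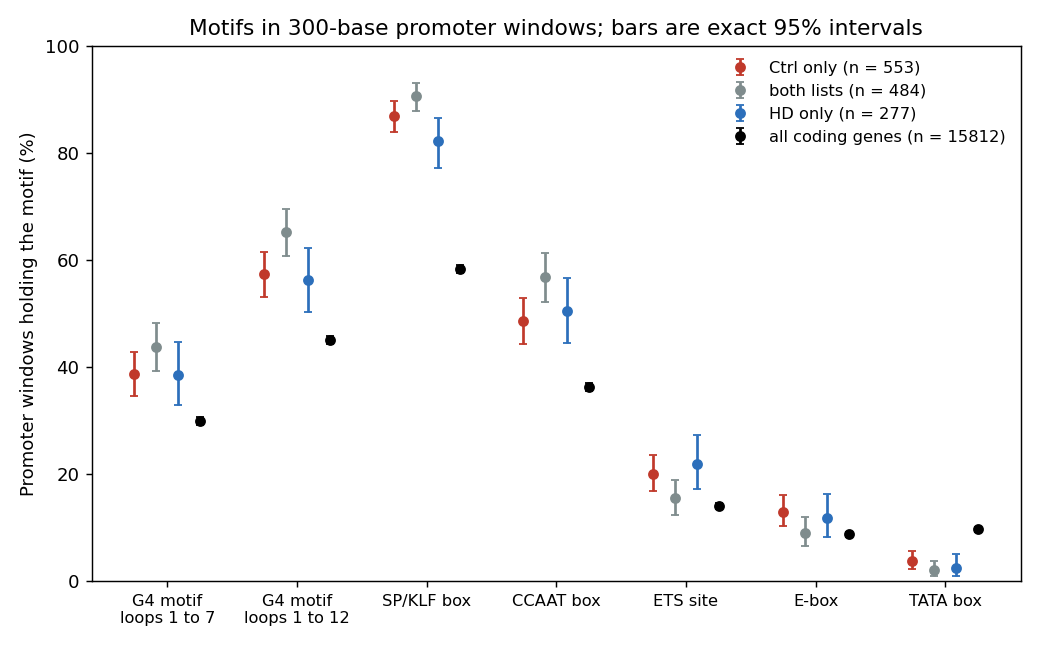
Share of 300-base promoter windows holding each motif (y axis, %), for Ctrl-only start peaks (red, 553 windows), peaks in both lists (grey, 484), peaks of the HD list alone (blue, 277) and the first start of 15812 coding genes (black). Bars are exact 95% binomial intervals. For each motif other than the TATA box the red points lie above the black ones.

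Some of the peaks also touched the end of a noncoding gene. This was so for 215 of 765 (28.1%, exact 95% binomial interval 24.9 to 31.4), of which 197 touched a long noncoding RNA gene. The shares were 32.5% (28.9 to 36.2) in both lists and 28.0% in the HD list alone. Genes named as divergent transcripts (-DT), which start next to a coding gene and run the other way, were touched by 43 Ctrl-only peaks (5.62%, 4.10 to 7.50) against 64 in both lists (9.76%, 7.59 to 12.3). These 2 intervals do not meet. In the HD list alone the share was 5.91% (22 peaks, 3.74 to 8.82), near that of the Ctrl-only peaks, and its interval overlaps both. The peaks in both lists were also wider (303 against 245 bp at the median), whose part in their higher share was not tested. Genes named as antisense (-AS) were touched by 49 (6.41%), against 6.40% in both lists and 5.91% in the HD list alone. Ends of microRNA genes were touched by 9 of the 765 peaks, against 7 of 656 in both lists and 7 of 372 in the HD list alone. The 9 were all chosen here for that annotation after their values were seen. Among them were EP300 with MIR1281 (24 fragments), NF1 with MIR4733 (31), NPM1 with MIR3912 (33) and STIM1, the calcium sensor of the endoplasmic reticulum, with MIR4687. A peak at the start of a coding gene cannot be assigned to one of 2 overlapping transcripts from these files.

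The genes were compared with 16 lists of coding genes by function. Of all 19821 coding genes 756 (3.81%) had a Ctrl-only peak, 654 (3.3%) a peak found in both lists and 368 (1.86%) a peak of the HD list alone. Of the 1859 genes on any list, 127 (6.83%, exact 95% binomial interval 5.73 to 8.07), 106 (5.70%) and 68 (3.66%) did. The lists were chosen with earlier results of these data known and share some genes, so no list was tested. The listed genes stood above the coding genes in all 3 sets of peaks. The median over the 127 was 26 fragments and a ratio of 4.87, beside 25 and 5.14 over all 765 peaks.

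Genes for proteins that bind or unwind G4s had the highest share, 7 of 30 (23.3%, 9.93 to 42.3), with 1 in both lists and 2 in the HD list alone. BRIP1, a helicase that unwinds G4s during replication and repair, had 40 fragments (28.6 to 54.5) and a ratio of 4.63. BLM, the helicase lost in Bloom syndrome, had 28 and 6.21. CNBP, a zinc knuckle protein that binds G-rich single strands, had 23 and 5.88, and TERF2, of the complex that caps telomeres, had 20 and 5.35. Of these 4 only BRIP1 had 30 fragments or more, as 192 of the 765 peaks did, and the interval of the share is wide. With the Ctrl list shortened to the length of the HD list, 3 of the 7 genes were left.

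Condensate scaffolds and nuclear body proteins had Ctrl-only peaks at 7 of 44 genes (15.9%, 6.64 to 30.1), with 4 in both lists and 4 in the HD list alone. SRSF1, a splicing factor of nuclear speckles, had 41 fragments (29.4 to 55.6) and a ratio of 5.06. DCP2, the decapping enzyme of P-bodies, had 32 and 5.93. COIL, the scaffold of Cajal bodies, had 23 and 6.15, and TIA1, of stress granules, had 23 and 5.04. With the shortened Ctrl list 4 of the 7 were left.

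Splicing factors and hnRNPs had Ctrl-only peaks at 10 of 72 genes (13.9%, 6.87 to 24.1), with 3 in both lists and 3 in the HD list alone. Besides SRSF1, these included SRSF4 (25 fragments, ratio 6.69), HNRNPC, which binds nascent transcripts (25 and 6.30), and HNRNPF, which binds G-rich RNA (33 and 4.37). The summits of SRSF1 and HNRNPC lay 426 and 373 bp before the start, farther than 3 in 4 of the 626 start peaks.

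Ubiquitin enzymes and proteasome genes had Ctrl-only peaks at 15 of 127 (11.8%, 6.76 to 18.7), with 10 in both lists and 7 in the HD list alone. The leading ones were the deubiquitinases USP25 (27 fragments) and USP22 (24), BTRC, a substrate receptor of SCF ligases (26), and PSMC4, an ATPase of the proteasome (24). Proteins of vesicle traffic had them at 14 of 131 (10.7%, 5.97 to 17.3), with 11 and 4. With the shortened Ctrl list each of these 2 lists kept 7 genes. RAB12 and RAB30 are small GTPases with 37 and 31 fragments, and EXOC7 and EXOC1 are exocyst subunits with 29 and 32. Nucleoporins and nuclear transport genes had them at 5 of 62 (8.06%), with 6 and 3. These included KPNA4, an importin alpha (34 fragments, ratio 8.70), IPO13 (33 and 6.97), IPO11 (28 and 6.19) and RAN, the GTPase that sets the direction of transport (29 and 6.62).

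For the replication and cell cycle list the count was 8 of 101 (7.92%, 3.48 to 15.01), beside 7 in both lists and 4 in the HD list alone. With the shortened Ctrl list it was 5. After CEP55 came CCNT2, a listed cyclin that belongs to the transcription elongation factor P-TEFb (35 fragments, ratio 8.30). CCNE1, the cyclin of S phase entry (35 and 5.56), and MCM10, a replication initiation factor (25 and 6.69), followed. Signalling genes had Ctrl-only peaks at 8 of 108 (7.41%) but peaks in both lists at 14 (13.0%), and peaks of the HD list alone at 5. The Ctrl-only ones were led by IP6K2, PAK4 (37), SOS1, a RAS activator (33), and NF1, a RAS inactivator (31). Centrosome and cilium genes had 9 of 129 (6.98%), with 6 and 6, led by TULP3, BBS7 of the BBSome (31), KIF2C, a microtubule depolymerase (27), and IFT57 of intraflagellar transport (25).

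By Ctrl-only peaks, the remaining lists were nearer to the 3.81% of all coding genes. RNA polymerase II machinery had 6 of 97 (6.19%), with 3 in both lists and 2 in the HD list alone. Among the 6 were POLR2G (25 fragments), MED13L (26), MED15 (31) and GTF2A2 (26). Translation factors had 5 of 89 (5.62%), with GSPT1, EIF2S2 (30), LARS1 (32) and QARS1 (24), and 2 with the shortened Ctrl list. For this list 3 genes had a peak in both lists and 5 (5.62%) a peak of the HD list alone. Chromatin modifiers had 6 of 125 (4.80%), with 11 (8.80%) in both lists and 8 (6.40%) in the HD list alone. The 6 Ctrl-only ones were led by the acetyltransferase EP300 (24), the methyltransferase PRMT1 (23), ASXL2 (31) and the demethylase KDM4A (26). Numbered zinc finger genes had 20 of 477 (4.19%, 2.58 to 6.40), with 19 in both lists and 9 in the HD list alone. The 20 were led by ZNF628 (31), ZNF595 (33), ZNF140 and ZNF652 (29). With the shortened Ctrl list the count was 12. Mitochondrial ribosome and respiratory chain genes had 6 of 147 (4.08%), beside 6 in both lists and 2 in the HD list alone. Among the Ctrl-only ones were MRPL38 (34), CYC1 (36), MRPS23 (32) and ATP5PO (25).

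DNA repair genes had 3 of 85 (3.53%), among them FANCG of the Fanconi pathway (22 fragments) and RNF168, a ligase of the break response (29). Peaks in both lists were at 3 repair genes and peaks of the HD list alone at 5 (5.88%), beside 1.86% of all coding genes. Tissue-restricted genes of other organs had 1 of 51 (1.96%, 0.0496 to 10.4) and none in either other set. That gene was APOA2, of high-density lipoproteins, with 49 fragments over a high expectation of 24.5 and a ratio of 2.00, and it was lost when peaks of over 2 times the genome-wide expectation were left out.

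**Figure D4:**
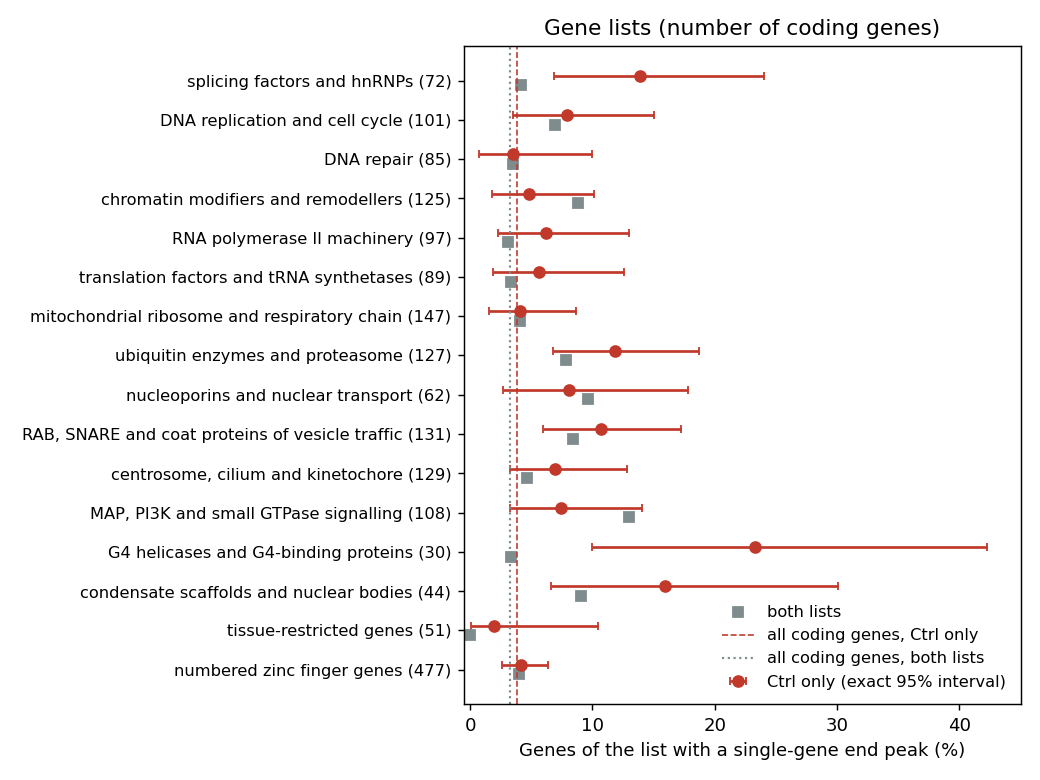
Share of the coding genes of each list (number in brackets) with a Ctrl-only peak (red circles with exact 95% binomial intervals) and with a peak found in both lists (grey squares). Vertical lines mark the same shares over all coding genes, 3.81% and 3.3%. The red points run from 1.96% for tissue-restricted genes to 23.3% for G4 helicases and G4-binding proteins.

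Distances to the HD list are given as a description, since sharing no base with it was part of the choice. The median distance to the nearest HD peak was 198 kb, and 257 of 765 (33.6%, exact 95% binomial interval 30.3 to 37.1) had one within 100 kb. Single-gene end peaks of the HD list alone lay a median of 119 kb from the nearest peak of the longer Ctrl list. There were 40 (5.23%) with an HD peak within 10 kb and 18 (2.35%, 1.40 to 3.69) within 1 kb. An HD peak lay somewhere in the gene or within 1 kb of it for 39 genes, and at one of the gene's own end windows for 24 of them. At 13 of the 756 genes a further Ctrl peak did share bases with an HD peak. So the label Ctrl-only refers to the bases of the peak, and not always to the gene.

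**Figure D5:**
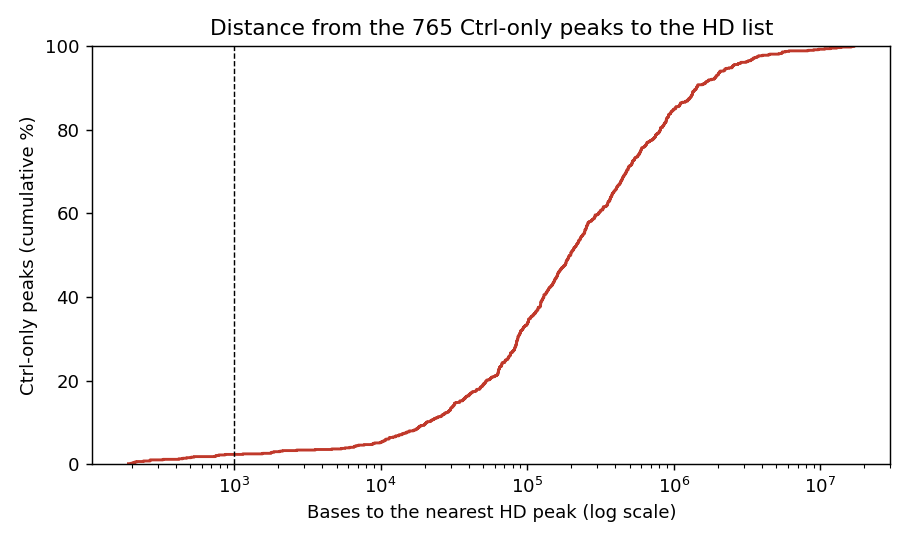
Cumulative share of the 765 Ctrl-only peaks (y axis, %) against the number of bases to the nearest HD peak (x axis, log scale), with a dashed line at 1 kb. The curve stays near the floor up to 10 kb, where it has reached 5.23%, and reaches 84.8% by 1 Mb.

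The 5 peaks nearest to the HD list missed it by about a peak's width. PLK3, a polo-like kinase, had 22 Ctrl fragments (13.8 to 33.3), 190 bp from an HD peak of 44. The 2 SRCAP peaks flanked an HD peak of 33 fragments at chr16:30698417-30698630, at 198 and 327 bp. CARD19 had 22 fragments 205 bp from an HD peak of 48, CNNM2 had 21 at 209 bp from one of 42, and FBRS had 18 at 216 bp from one of 38. At 4 of these genes the ends also held a Ctrl peak that an HD peak overlapped, with 32 fragments at PLK3, 23 at CARD19, 34 at CNNM2 and 35 at FBRS. On the other side of the line, ZNF143 shared 30 bases with an HD peak (24 Ctrl and 29 HD fragments), RNF208 shared 62 (19 and 26) and ANKRD36 shared 106 (26 and 36). ALCAM shared 110 (23 and 26) and FGGY 112 (23 and 29). Ctrl fragment numbers thus ran from 18 to 24 in the 5 peaks just inside the line and from 19 to 26 in the 5 just outside it.

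The gene-end window had a similar edge. AHNAK, ZFPM1 and TPM2 were the last peaks inside it, at 968, 962 and 956 bp from the gene end, with 25, 24 and 25 fragments. HOXC4, SMAD6 and LOC107986800 were the first outside, at 1002, 1013 and 1022 bp, with 20, 30 and 75.

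Genes with an HD peak elsewhere in them included several strong ones. ANXA2, a membrane-binding annexin, had 36 Ctrl fragments at its start, 118 bp before it, with an HD peak of 31 fragments 4.63 kb away. TPM1, a tropomyosin of actin filaments, had 37, with an HD peak of 41 at 5.40 kb. SAP130, of the Sin3 corepressor, had 30 with an HD peak of 42 at 474 bp, and TNFRSF12A, the receptor of the cytokine TWEAK, had 30 with one of 31 at 508 bp. CYC1, cytochrome c1, had 36 with one of 66 at 1.15 kb. These last 3 genes also had a Ctrl peak that an HD peak overlapped, of 40 fragments at SAP130, 35 at TNFRSF12A and 48 at CYC1. BSN and ERI3 had 36 and 35, with HD peaks at 14.01 and 27.1 kb within their genes. HD fragments were counted at the greater HD depth.

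The caller's local expectation differed between peaks. It was the genome-wide one at 174 of 765 peaks (22.7%, 19.8 to 25.9), over 2 times it at 80 and over 5 times it at 6. Median expectations were 4.53 fragments for the Ctrl-only peaks and 5.40 for the peaks in both lists. Peaks of high expectation reached the list at low ratios, and the results without them are given with the alternatives.

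Across chromosomes, the share of coding genes with a Ctrl-only peak was highest on chromosome 15 (7.31%, 44 peaks) and chromosome 10 (7.09%, 52 peaks) and lowest on X (0.354%, 3 peaks), against 3.81% in all. Among Ctrl peaks at 1 coding gene, 53.8% were Ctrl-only over all chromosomes. The share ran from 23.8% on chromosome 21 (5 of 21, 8.22 to 47.2) to 85.7% on chromosome 13 (6 of 7, 42.1 to 99.6). Chromosome 6 had 26 of 33 (78.8%, 61.1 to 91.0). These are extremes picked from 23 chromosomes, some with few peaks. The choice of peaks used this share, so nothing is read from its spread.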

How the data were processed

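BG4 ChIP-seq of U2OS cells, untreated (Ctrl) or treated with HD, was described from 6 libraries (2 ChIP and 1 input per condition). Alignment to hg38 and peak calling are known only from the tools in the submitters' processing notes, which are Bowtie2 2.5.0, MACS2 2.2.7.1, FastQC 0.11.9 and SAMtools. The sources used here do not give whether duplicates were removed or libraries pooled. The authors deposited 1 peak list per condition, with positions, a score (10 times −log10 q as a whole number), a fold enrichment ratio over local background, and −log10 p and −log10 q values. The lowest deposited −log10 q was 1.31 in Ctrl and 1.30 in HD, which is a q-value of 0.05. Read totals per library were not used here.

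Peaks on chromosomes 1 to 22 and X were kept, leaving out 131 Ctrl and 97 HD peaks. Fragments at each summit and the local expectation were recovered from the deposited fold and −log10 p, using the caller's formulas (pileup plus 1 over expectation plus 1, and an upper Poisson tail). A whole number of fragments reproduced −log10 p within 0.01 for 3501 of 3507 Ctrl and 2262 of 2269 HD peaks. More than 1 number was possible for 3.31% and 4.05% of peaks (11 of the 765), and the closest was taken. The step was tested on data simulated with the same formulas, over a narrower range of fragment numbers. That checks the calculation, and not whether the formulas hold for the deposited lists. Amplified reads are not independent molecules, so Poisson and exact (Clopper-Pearson) binomial intervals, both at 95%, cover counting error only.

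Gene ends came from a RefSeq table of GRCh38.p14, the assembly of hg38, leaving out 789 of 59792 genes on scaffolds or without a place. Strand and 300-base promoter windows came from a RefSeq promoter table, which is not complete and held 15812 coding genes. No test was run, since each condition has 1 list and peaks are not replicates. The peaks and lists were chosen with earlier results of these data known. Named genes were the 15 highest by −log10 q, up to 4 per list, the 5 nearest to the HD list and the 5 sharing the fewest bases with it, the 5 highest at far ends, genes with 2 peaks, the 5 widest, the 5 of highest fold, the 5 richest in G4 motifs, and up to 8 with an HD peak elsewhere in the gene. Some genes that the rule names are not reported here. Names outside this rule are the peaks at the window's edge, STIM1, NPM1 and those under Other observations. Python 3.11.15, pandas 2.3.3, NumPy 2.4.6 and SciPy 1.17.1 were used.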

Additional observations from a re-analysis of the deposited data

How the results depend on the processing

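Of 12 alternatives, 2 moved a main result beyond its interval or by over 1.5 times. With the Ctrl list shortened to as many peaks as the HD list by −log10 q, 487 peaks were left in place of 765, the Ctrl-only share at 1 coding gene was 47.8% in place of 53.8%, the median peak had 27 fragments in place of 25, and 79 listed genes in place of 127 had a peak. With loops of up to 12 bases the share of windows with a G4 motif was 57.3% in place of 38.7%. Other window sizes, overlap rules, q cut-offs and the 250 bases before the start alone kept the main results within these bounds, as did 3 alternatives chosen after seeing the data (without peaks of over 2 times the genome-wide expectation, of more than 1 possible fragment number, or within 1 kb of an HD peak). Of 160 counts of single gene lists, 149 stayed within 1.5 times and 11 moved, 8 of them with the shortened list. There the G4-binding list fell from 7 genes to 3, condensates from 7 to 4, ubiquitin from 15 to 7 and vesicle traffic from 14 to 7. APOA2 was lost in 4 alternatives, including the one without high expectation.

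No paired analysis was possible because the deposited lists give no value per library. For the same reason no replicate was left out. Depth limits single peaks, and 82 of 765 had under 20 fragments.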

Other observations

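Some peaks stood on a background far above the rest, and they are named here after their values were seen. At IGFBP1, a binding protein of insulin-like growth factors, 437 fragments stood against 267.6 expected, a ratio of 1.63 (1.48 to 1.79). At the far end of P4HB, the protein disulfide isomerase, 146 stood against 92.8, a ratio of 1.57 (1.33 to 1.85). TAF11L5 had 124 against 64.2, LOC101929601 had 113 against 52.9, APOA2 had 49 against 24.5 and KDELR1, a receptor that returns proteins to the endoplasmic reticulum, had 43 against 19.4. These are the 6 peaks with over 5 times the genome-wide expectation, and all lay at ratios of 2.21 or less. At least 3 of the 6 were at far ends by strand (P4HB, TAF11L5 and KDELR1), whereas 15 of the 641 peaks of known strand were.

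Genes with a Ctrl-only peak had a median length of 35.1 kb, those with peaks in both lists 33.6 kb and those of the HD list alone 28.8 kb, against 24.5 kb over all coding genes.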
